A study of Mus musculus with 4 samples.

Results

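The 34 genes described here encode proteins of the red blood cell lineage: enzymes of heme synthesis, carriers of iron and heme precursors, erythroid transcription factors, the erythropoietin receptor, the membrane skeleton, membrane proteins, and a few other proteins typical of erythroid cells. They were chosen by name, with earlier results of these data known, and all 34 were found on the array under the name in the scanner files or under the gene named by a probe's accession. They make up 34 of the 18584 genes measured in fetal or maternal liver. The groups were food-deprived fetuses, control fetuses, food-deprived mothers and control mothers, all C57BL/6J mice, an inbred laboratory strain, with liver as the tissue. Control animals and food-deprived animals came from the same housing, with chow and tap water, per the labels. How long food was withheld, the gestational stage and the sex of the fetuses are not stated in these sources.

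RNA of 5 to 10 biological replicates was pooled per condition and measured on 4 two-colour Agilent arrays, 2 for the fetus and 2 for the mother. On the first array of each comparison the food-deprived pool carried the red dye Cy5 and the control pool the green dye Cy3, and on the second array the dyes were swapped. The labels number the arrays of a comparison as pooled samples 1 and 2, always together with the dye order, and do not settle whether these are separate pools. The arrays were therefore counted as 1 pool per condition measured with both dyes and no significance test was made, so the spread between arrays is the only error given, and it may be technical. Per array and dye 53.2% to 69.7% of the spots for genes exceeded the background clearly, by the scanner software's call, and 0 were saturated. The SD of the log2 ratio of a single array, taken from the difference between the arrays, was 0.15 for fetal and 0.16 for maternal arrays over all measured genes, and 0.19 in both over the 34 genes. All 6 hepatocyte marker genes on the array (Alb, Ttr, Apoa1, Hnf4a, Afp and Tf) were well above background in control fetal and control maternal liver.

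Before birth the liver of the mouse is a main site of red blood cell formation, while in the adult this takes place in bone marrow and spleen. Developing erythroid cells switch on heme synthesis under the transcription factors GATA1, KLF1 and TAL1, take up iron through the transferrin receptor, and build a membrane in which a spectrin network is tied through ankyrin and other linkers to the anion exchanger band 3. Heme synthesis starts and ends in the mitochondrion with middle steps in the cytosol, and every cell, hepatocytes above all, also needs heme for its cytochromes, whereas the membrane skeleton genes named here are used in the red cell or in a few other tissues.

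Promoter windows of 4 of the genes are shown first because these genes hold the values the comparison turns on: Klf1 had the lowest fetal value of all 34 genes, Uros of the heme enzymes and Kel of the membrane proteins, and Gfi1b had the highest fetal value of the 34. The windows are the 250 bases before an annotated start, from RefSeq on GRCm38.p6, written 5′ to 3′ on the strand of the gene. Capitals mark the letters that the transcription factor GATA1 is known to bind, searched as GATAA or GATAG preceded by A or T, on both strands, so that capitals that end in ATCA or ATCT are matches on the other strand. They lie at chr8:84901732-84901981 on the plus strand for Klf1, chr7:133702501-133702750 on the minus strand for Uros, chr6:41704326-41704575 on the minus strand for Kel and chr2:28621983-28622232 on the minus strand for Gfi1b. The first base of a match lay at -80 from the start in Klf1, at -205 and -68 in Uros, at -56 and -19 in Kel and at -120 in Gfi1b.
Klf1: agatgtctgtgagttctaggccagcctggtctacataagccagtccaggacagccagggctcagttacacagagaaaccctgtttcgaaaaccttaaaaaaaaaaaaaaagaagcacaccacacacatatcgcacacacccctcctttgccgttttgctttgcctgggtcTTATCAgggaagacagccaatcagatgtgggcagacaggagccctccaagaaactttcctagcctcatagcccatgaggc
Uros: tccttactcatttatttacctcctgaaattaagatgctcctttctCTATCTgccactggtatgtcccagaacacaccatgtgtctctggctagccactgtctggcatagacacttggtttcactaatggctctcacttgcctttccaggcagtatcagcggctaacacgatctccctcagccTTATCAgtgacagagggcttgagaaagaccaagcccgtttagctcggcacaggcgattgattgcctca
Kel: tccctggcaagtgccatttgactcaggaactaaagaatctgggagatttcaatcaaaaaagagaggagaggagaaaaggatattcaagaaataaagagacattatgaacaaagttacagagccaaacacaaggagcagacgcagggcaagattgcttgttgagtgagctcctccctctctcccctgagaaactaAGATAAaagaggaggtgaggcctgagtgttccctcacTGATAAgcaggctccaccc
Gfi1b: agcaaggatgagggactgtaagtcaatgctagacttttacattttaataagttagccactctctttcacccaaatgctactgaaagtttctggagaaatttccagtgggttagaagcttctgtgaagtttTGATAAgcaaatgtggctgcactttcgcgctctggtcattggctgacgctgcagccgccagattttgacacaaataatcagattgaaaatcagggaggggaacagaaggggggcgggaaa
The table has 2 windows for Uros, and the other, at chr7:133709296-133709545, held no match. Windows were found for 25 of the 34 genes, 29 in all, and 15 of these windows (51.7%) held a match, against 26.5% of all 32841 windows in the table. A match describes letters and does not show that the factor binds there.

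In the fetal liver most of the 34 genes had lower values in the food-deprived pool than in the control pool, by a small fold. All 34 were measured, which means that the control or the food-deprived channel was well above background on both arrays. The median log2 ratio of food-deprived over control was -0.30 over the 34 genes (-0.38 on the first array and -0.24 on the second), against -0.00 over all 18051 measured genes. It was -0.24 for the 7 heme enzymes, -0.32 for the 6 membrane skeleton genes and -0.34 for the 5 transcription factors. Whether the classes differ from each other was not tested. No gene of the 34 changed by the rule of at least 2-fold on average and at least 1.5-fold on each array, a rule that 0.781% of all measured genes passed. By a milder rule, at least 1.2-fold in the same direction on each array, 11 of 34 were lower (32.4%), against 4.15% of all measured genes, and 1 was higher, against 5.76%. Below, "fell" and "rose" are used for genes past this 1.2-fold rule. Bracketed pairs of values are the food-deprived over control log2 ratios of the first and the second array. Overlap of levels, where given, compares 2 array values of 1 pool per condition. The share of all measured genes without overlap is not given, and genes with levels were partly picked for the size of their change. A lack of overlap is therefore not read as evidence of a change.

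The count of 11 depends on loess, the step that removes a dye bias that changes with brightness. When median centring replaced loess, it was 0, as 91 of all measured genes passed as lower against 750, and spots brighter than 10 on the log2 scale then had a median log2 ratio of 1.05 on the first fetal array and -1.10 on the second, opposite signs that follow the dye. The fetal median of the 34 genes relative to that of all measured genes was -0.30 with loess and -0.30 with median centring, but -0.15 when median centring was run on the local background as deposited. Both fetal arrays lay below 0 for 24 of the 34 genes (70.6%), against 31.6% of all measured genes, both lay above 0 for 2, against 31.1%, and the arrays disagreed in sign for 8. Across the 34 genes the ratios of the fetal arrays correlated with a Pearson r of 0.39, against 0.66 across all measured genes. These genes share the pools and the arrays and are not independent. With the sign of the second array unturned, which would keep dye effects, none of the 34 passed the 1.2-fold rule, and 102 of all measured genes did. A gene with both turned arrays on one side of 0 cannot pass unturned. The outcome was thus fixed for the 24 genes below 0 and the 2 above, and nothing is concluded from it. RNA from whole liver was pooled, so fewer erythroid cells and less of these RNAs per erythroid cell cannot be told apart.

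**Figure D1:**
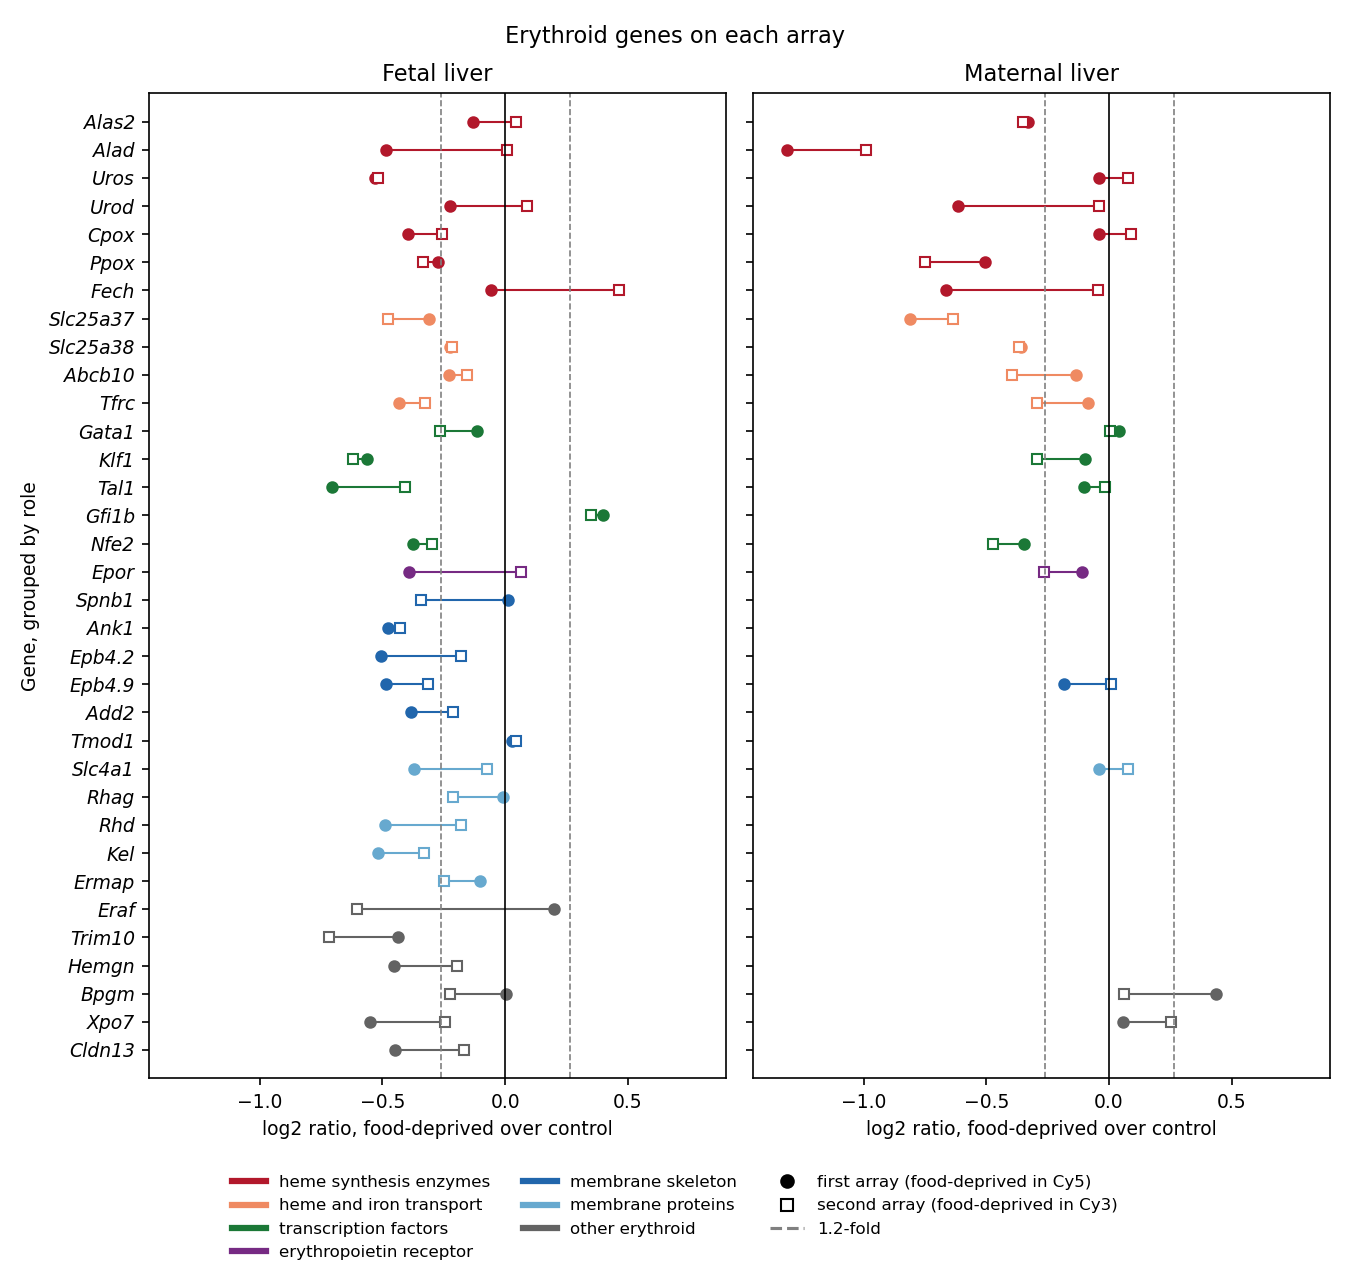
Log2 ratio of food-deprived over control liver (x axis) for each of the 34 genes (y axis, coloured by role) in fetal liver (left) and maternal liver (right). Filled circles are the first array, open squares the second, lines join the arrays of a gene, and dashed lines mark 1.2-fold. In the fetus 24 genes lie below 0 on both arrays, and in the mother 20 genes were measured and have points.

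**Figure D2:**
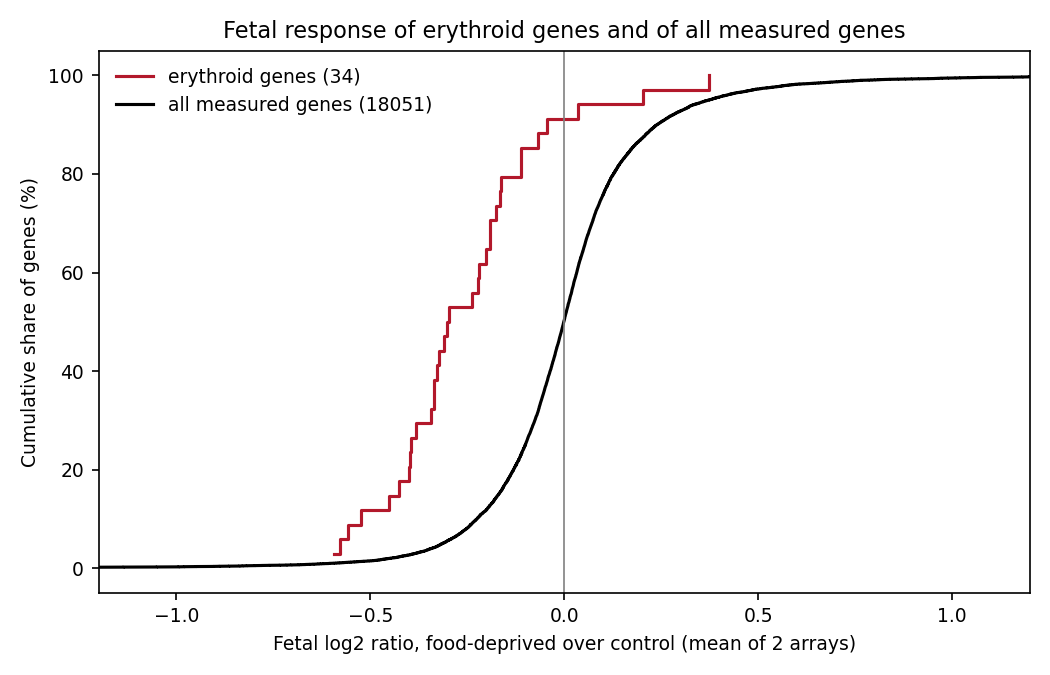
Cumulative share of genes in percent (y axis) at or below a fetal log2 ratio of food-deprived over control, mean of 2 arrays (x axis), for the 34 erythroid genes (red) and for all 18051 measured genes (black). The red curve lies left of the black one over most of its height, with medians of -0.30 and -0.00, and some of all measured genes lie beyond the range of the x axis.

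Among the heme enzymes the fetal response was uneven. Uros, which makes the ring of uroporphyrinogen and is the fourth enzyme of the pathway, had log2 levels of 8.44 and 8.23 in food-deprived fetal liver, against 8.97 and 8.74 in control fetal liver. Both control values were above both food-deprived values. Uros fell 1.44-fold (-0.53 and -0.52), the lowest heme enzyme. Alas2, the erythroid form of the first and rate-limiting enzyme, had the value nearest to 0, with levels of 14.39 and 14.54 in food-deprived fetal liver, against 14.52 and 14.50 in control fetal liver. The 2 conditions overlapped for Alas2, and its ratio lay on both sides of 0 (-0.13 and 0.04).

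Of the remaining heme enzymes, Ppox, which oxidises protoporphyrinogen, fell 1.23-fold (-0.27 and -0.33). Cpox, the enzyme of the step before it, had the values -0.40 and -0.26 and just missed the 1.2-fold rule, which asks for 0.26 in size on each array, on the second array. Alad, which joins 2 molecules of aminolevulinate, had -0.49 and 0.01, and Urod, which removes carboxyl groups from uroporphyrinogen, had -0.23 and 0.09. For Fech, which inserts iron into the finished ring, the brightest probe had -0.06 and 0.46, and its other probe -0.04 and -0.09. In all 2 of 7 heme enzymes fell and none rose, 3 lay below 0 on both arrays and 4 had arrays of opposite sign. On the second array alone the median of the class was 0.01, so its negative median rests on the first array, where it was -0.27.

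The carriers that supply heme synthesis all lay below 0 on both fetal arrays. Slc25a37, mitoferrin, which brings iron into the mitochondrion, had levels of 14.85 and 14.62 in food-deprived fetal liver, against 15.15 and 15.10 in control fetal liver. The control levels were the higher on both arrays, and Slc25a37 fell 1.31-fold (-0.31 and -0.48). Another measured probe of Slc25a37 had -0.05 and 0.10, and the mean over its probes was -0.18. Tfrc, the transferrin receptor, fell 1.30-fold (-0.43 and -0.33). Slc25a38, a mitochondrial glycine carrier, had -0.22 and -0.22. Abcb10, a transporter of the mitochondrial inner membrane, had levels of 9.20 and 9.41 in food-deprived fetal liver, against 9.42 and 9.56 in control fetal liver. The nearest levels of the 2 conditions, 9.41 and 9.42, were almost equal. Its ratio missed the 1.2-fold rule on both arrays and was nearest to 0 among the carriers (-0.23 and -0.16).

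The transcription factors held both the lowest and the highest of the 34 fetal values. Klf1, the factor that switches on adult beta globin and many late erythroid genes, had levels of 10.30 and 9.98 in food-deprived fetal liver, against 10.87 and 10.61 in control fetal liver. The conditions did not overlap, and Klf1 fell 1.51-fold (-0.56 and -0.62), at percentile 1.03 of all measured genes. Tal1, a helix-loop-helix factor needed for the formation of blood cells, fell 1.47-fold (-0.70 and -0.41), and Nfe2, which acts at globin loci and in megakaryocytes, fell 1.26-fold (-0.38 and -0.30). Gata1, the central factor of erythroid development, had levels of 9.59 and 9.49 in food-deprived fetal liver, against 9.71 and 9.75 in control fetal liver, and a ratio that missed the 1.2-fold rule on its first array (-0.12 and -0.26). Its conditions did not overlap.

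Gfi1b, a repressor of transcription needed in erythroid cells and megakaryocytes, went the other way. Its levels were 11.60 and 11.66 in food-deprived fetal liver, against 11.20 and 11.32 in control fetal liver. Both food-deprived levels were above both control levels, and Gfi1b rose 1.30-fold (0.40 and 0.35). Megakaryocyte markers, from a cell type that also uses Gfi1b, had a fetal median of 0.18 over 6 genes, with 0 of 6 past the 1.2-fold rule and values between 0.01 and 0.30. Their part in the value of Gfi1b was not tested. Epor, the erythropoietin receptor, had levels of 11.44 and 11.86 in food-deprived fetal liver, against 11.83 and 11.79 in control fetal liver, and its arrays disagreed (-0.39 and 0.07).

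In the membrane skeleton 2 of 6 genes fell and none rose. Ank1, ankyrin, which ties spectrin to band 3, had levels of 11.69 and 11.64 in food-deprived fetal liver, against 12.17 and 12.06 in control fetal liver, without overlap. By its brightest probe Ank1 fell 1.37-fold (-0.48 and -0.43), but a probe of nearly the same brightness had -0.06 and -0.08, and the mean over its 5 probes was -0.17. Epb4.9, now named Dmtn, dematin, a protein that bundles actin, fell 1.32-fold (-0.48 and -0.31), and its mean over 3 probes was -0.27. With the mean over probes as the value of a gene, Ank1, Epb4.9 and Slc25a37 no longer pass the 1.2-fold rule, and Epb4.2 does. The count of lower genes is then 9, against 3.68% of all measured genes.

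Epb4.2, now Epb42, protein 4.2, which binds band 3 and ankyrin, had -0.50 and -0.18 by its brightest probe and -0.39 and -0.48 by its other probe. Add2, beta adducin, a cap of actin filaments, had -0.38 and -0.21, and all 4 of its probes lay below 0 on both arrays. Spnb1, now Sptb, beta spectrin, had 0.01 and -0.34 by its brightest probe, while the next brightest had -0.36 and -0.28. Tmod1, tropomodulin, which caps the other end of actin filaments, stood near 0 by its brightest probe (0.03 and 0.04). That probe had levels of 9.54 and 9.55 in food-deprived fetal liver, against 9.51 and 9.51 in control fetal liver. The other probe of Tmod1 had 0.01 and -0.20. Over the 34 genes 11 had more than 1 measured probe, and in 6 of these all probes shared the direction.

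All 5 membrane proteins lay below 0 on both arrays, and 1 passed the 1.2-fold rule. Kel, the Kell blood group protein, had levels of 12.24 and 12.08 in food-deprived fetal liver, against 12.76 and 12.41 in control fetal liver, and fell 1.34-fold (-0.52 and -0.33), with both control levels above both food-deprived ones. Rhd, a blood group protein of the Rh complex, had -0.49 and -0.18. Slc4a1, the anion exchanger band 3 and the most abundant protein of the red cell membrane, had -0.37 and -0.07. Ermap, an erythroid membrane protein of the immunoglobulin superfamily, had -0.10 and -0.25. Rhag, the partner of Rhd in the Rh complex, had levels of 9.71 and 9.47 in food-deprived fetal liver, against 9.72 and 9.68 in control fetal liver. These conditions overlapped, and the ratio was nearest to 0 in its class (-0.01 and -0.21).

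Among the other erythroid genes Trim10, a RING finger protein of late erythroid cells, had levels of 11.85 and 11.64 in food-deprived fetal liver, against 12.29 and 12.36 in control fetal liver. The conditions did not overlap, and Trim10 fell 1.49-fold (-0.44 and -0.72). Xpo7, an exporter of nuclear proteins that is high in maturing erythroblasts, had -0.55 and -0.24, just short of the rule on the second array. Hemgn, a nuclear protein of blood cells, had -0.45 and -0.19, and Cldn13, a claudin found in mouse erythroid cells, had -0.45 and -0.17. Eraf, now Ahsp, the chaperone of alpha globin, had arrays of opposite sign (0.20 and -0.60). Bpgm, which makes the bisphosphoglycerate that lowers oxygen affinity, had levels of 12.40 and 11.92 in food-deprived fetal liver, against 12.39 and 12.14 in control fetal liver, with overlap (0.00 and -0.23).

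Lists of related genes outside the 34 had medians nearer to 0. Of 17 other measured genes of heme and iron handling 2 fell and 3 rose, with a median of -0.03. The genes that rose were Alas1, the form of the first heme enzyme used outside erythroid cells (0.76 and 0.49), Hmox1, which breaks heme down (0.35 and 0.44), and Trfr2, the liver transferrin receptor 2 (0.53 and 0.29), while Ftl1, a ferritin chain (-0.33 and -0.31), and the iron carrier gene Slc11a2 (-0.37 and -0.34) fell. Of 18 other membrane and skeleton genes 2 fell, the adhesion protein gene Icam4 (-0.48 and -0.28) and the potassium channel gene Kcnn4 (-0.55 and -0.30), and 3 rose, the water channel genes Aqp1 (0.59 and 0.41) and Aqp9 (0.32 and 0.38) and the complement inhibitor gene Cd59a (0.37 and 0.54), with a median of -0.15. In 20 other erythroid regulators 1 fell, Lyl1, a relative of Tal1 (-0.29 and -0.27), none rose and the median was -0.07. In 19 genes of erythroid maturation the exonuclease gene Isg20 fell (-0.44 and -0.39), Rnf10 (0.29 and 0.37) and the carbonic anhydrase gene Car1 (0.48 and 0.59) rose, and the median was -0.12. The 4 measured globins, none past the rule, had a median of 0.21 on the first array and -0.48 on the second.

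Several other markers moved beside the 34 genes in the fetus. Genes of dividing cells had a median of -0.27, close to that of the erythroid genes, and 4 of 12 fell: Mcm2 (-0.37 and -0.50), Mcm3 (-0.34 and -0.38) and Mcm5 (-0.29 and -0.50), which unwind DNA for replication, and Mki67 (-0.50 and -0.29). Blood progenitor markers had a median of 0.07 over 5 genes, granulocyte precursor markers -0.01 over 6, Kupffer cell markers -0.00 over 6, with Adgre1 lower (-0.33 and -0.36) and Vsig4 higher (0.31 and 0.30), and lymphocyte markers -0.02 over 4. Endothelial markers had a median of 0.12 over 4, with Lyve1 higher (0.37 and 0.29). Hepatocyte markers had a median of -0.07 over 6, but 0.32 on the first array and -0.49 on the second. Among them Ttr was lower (-0.80 and -1.11) and Apoa1 higher (0.63 and 0.40). Xist, the RNA of the inactive X chromosome, was far lower in the food-deprived fetal pool (-3.58 and -3.18), while the Y-linked genes had 0.57 and 0.25 for Ddx3y, 0.56 and 0.19 for Eif2s3y, 0.13 and 0.07 for Uty and 0.03 and 0.01 for Kdm5d, none past the rule. Alas2 and Gata1 lie on the X chromosome. What part dividing cells or the sex of the pooled fetuses have in the values of the 34 genes was not tested.

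The promoter windows can be set beside these values. The 15 genes with a GATA match in a window had a fetal median of -0.33 and a range from -0.59 to 0.37, and 5 of them fell. The 10 genes whose windows held none had a median of -0.19, and 2 of them fell. The 9 genes without a window had a median of -0.34, and 4 of them fell. The windows printed above show that both Klf1, which fell, and Gfi1b, which rose, held a match.

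The 34 genes were far higher in fetal than in maternal liver, and the classes differed in how much. Levels here are log2 intensities after normalisation, and are compared only between samples for the same probe. By the rule of 2-fold on average and 1.5-fold on each array, 32 of 34 genes were higher in control fetal than in control maternal liver, against 11.5% of all genes measured in either. For 10 genes the probe was not well above background in control maternal liver on either array, so the fold is a bound, taken against the lowest level well above background or the probe's own level, whichever is higher. The median log2 difference, bounds included, was 1.62 for the heme enzymes, 3.89 for the membrane skeleton, 5.23 for the transcription factors and 6.63 for the membrane proteins. The 2 genes under the rule were Alad and Uros, at 1.56-fold and 1.66-fold. Hepatocytes also use both enzymes, as they do others of the class that passed the rule. Why these 2 did not pass was not tested.

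Within the heme enzymes Alas2 stood apart from the rest, with control levels of 14.52 and 14.50 in the fetus, against 10.23 and 10.19 in the mother, a 19.8-fold difference. Ppox was 5.72-fold higher in the fetus, and the others were 3.62-fold higher or less. Among the carriers Slc25a37 was 34.8-fold higher, and the range of the transcription factors ran from 11.1-fold for Gata1 to 57.4-fold for Nfe2. Slc4a1 was 286-fold higher, with 15.15 and 14.73 in the fetus, against 6.77 and 6.80 in the mother. Rhd was at least 209-fold, Hemgn at least 185-fold and Kel at least 99.3-fold higher. Eraf had 14.42 and 15.06 in control fetal liver, against 6.08 and 6.12 in control maternal liver, where 1 of the 2 arrays was above background.

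**Figure D3:**
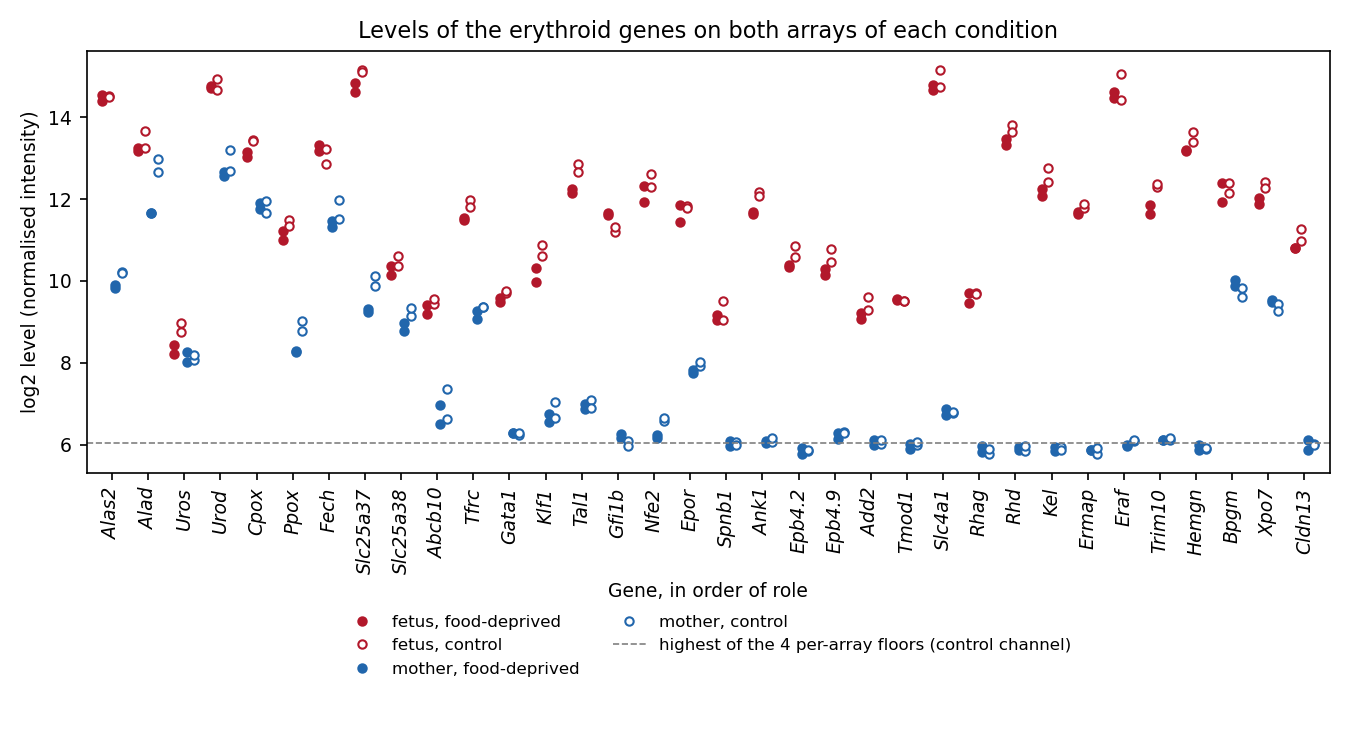
Log2 level, as normalised intensity (y axis), of the 34 genes (x axis, in order of role) in food-deprived fetal (filled red), control fetal (open red), food-deprived maternal (filled blue) and control maternal liver (open blue), 1 point per array. Levels of different genes come from different probes and are not comparable. The dashed line is the highest of the 4 control-channel floors, 6.05, where most maternal levels of the membrane genes lie.

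In the maternal liver 20 of the 34 genes were measured, and 6 of them passed the 1.2-fold rule as lower. The measured genes were all 7 heme enzymes, the 4 carriers, 4 of 5 transcription factors, Epor, 1 of 6 skeleton genes, 1 of 5 membrane proteins, Bpgm and Xpo7. For 9 genes, all of them in the membrane classes except Hemgn and Cldn13, no maternal channel was well above background on any array, so the membrane skeleton class has a single maternal ratio, that of Epb4.9. Alad had levels of 11.66 and 11.67 in food-deprived maternal liver, against 12.97 and 12.66 in control maternal liver. The conditions did not overlap, and Alad fell 2.22-fold (-1.31 and -0.99), the only 1 of the 20 past the 2-fold rule, which 3.93% of all 16147 genes measured in the mother passed.

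By the 1.2-fold rule 6 of 20 fell (30.0%), against 13.4% of all measured genes, and none rose, against 11.1%. When median centring replaced loess, 1 of the 20 passed as lower, and 294 of all measured genes did, against 2156. With Alad these were Slc25a37, 1.65-fold lower (-0.81 and -0.64), Ppox, 1.55-fold lower (-0.51 and -0.75), Nfe2 (-0.35 and -0.47), Slc25a38, 1.29-fold lower (-0.36 and -0.37), and Alas2, 1.27-fold lower (-0.33 and -0.35). The maternal mean of Slc25a37 over its probes was -0.34, against -0.72 by the brightest probe. For Nfe2 the food-deprived channel was above background on 1 of the 2 maternal arrays, its maternal mean ran from -2.08 to -0.25 over the alternatives, and it had no value where both conditions had to be above background. Of the 6 genes, 5 were heme enzymes or carriers, as were 11 of the 20 measured. Alas1, the form of the first enzyme that hepatocytes use, rose in the same pools (1.13 and 0.92). The median was -0.34 for the 7 heme enzymes, -0.31 for the 4 carriers and -0.13 for the 4 measured transcription factors, against -0.01 for all measured genes. For the heme enzymes it was -0.51 on the first maternal array and -0.05 on the second.

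The other maternal values were smaller or uneven. Urod had -0.62 and -0.04, and Fech had -0.66 and -0.05 by its brightest probe and -0.62 and -0.83 by its other probe. Uros (-0.04 and 0.08) and Cpox (-0.04 and 0.09) stood near 0. Abcb10 had -0.13 and -0.39, Tfrc -0.09 and -0.29 and Epor -0.11 and -0.27. The transcription factors gave -0.10 and -0.29 for Klf1, -0.10 and -0.01 for Tal1 and 0.04 and 0.00 for Gata1. Epb4.9 had -0.18 and 0.01, Slc4a1 -0.04 and 0.08, Xpo7 0.06 and 0.25 and Bpgm 0.44 and 0.06. Among related genes in the mother 2 of 17 of heme and iron handling fell and 4 rose, 5 of 15 membrane and skeleton genes fell and 1 rose, 4 of 18 regulators fell and 2 rose, and 4 of 16 maturation genes fell and 3 rose. Besides Alas1, those past the 2-fold rule were Cbfa2t3, a corepressor (1.61 and 1.31), Epb4.1, protein 4.1 of the membrane skeleton (1.65 and 1.08), and Mgst3, a glutathione transferase (-0.90 and -1.11). In the same pools 5 of 6 Kupffer cell markers fell (median -0.72) and 7 of 12 genes of dividing cells fell (median -0.53), and the part of these cells in the maternal values was not tested.

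Set against the maternal response, the fetal one was lower for some genes and higher for others. Over the 20 genes measured in both, the median of the fetal minus the maternal log2 ratio, taken between arrays of the same dye orientation, was -0.08, and it turned positive under 5 of the 13 alternatives, between 0.02 and 0.11. By the 1.2-fold rule on this difference 7 of 20 were lower in the fetus, against 12.3% of all 15597 genes measured in both, and 2 were higher, against 15.3%. None passed the 2-fold rule, against 3.42% of all genes. The 7 that were lower were Xpo7 (-0.61 and -0.50), Uros (-0.49 and -0.60), Tal1 (-0.60 and -0.39), Klf1 (-0.47 and -0.33), Bpgm (-0.43 and -0.29), Cpox (-0.36 and -0.35) and Epb4.9 (-0.30 and -0.32). The maternal probes of Klf1 and Epb4.9 were dim, Epb4.9 with the food-deprived channel above background on 1 of 2 arrays. With the processed signals Klf1 had -0.62 in the fetus and -0.51 in the mother, and Epb4.9 had -0.42 in the fetus and -0.34 in the mother. The other probe of Bpgm had -0.03 and 0.22 in the fetus and 0.17 and 0.30 in the mother. The 2 that were higher were heme enzymes, Alad (0.83 and 1.00) and Fech (0.60 and 0.51).

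By class the median difference was 0.30 for the 7 heme enzymes and -0.30 for the 4 measured transcription factors, so these classes lay on opposite sides of 0. They did so under all 13 alternatives, between 0.23 and 0.59 for the heme enzymes and between -0.45 and -0.10 for the factors. The -0.45 came from asking for both conditions above background, which left only Klf1 and Tal1 among the factors. The processed signals and the series table hold nearly the same ratios and both gave -0.28 for the factors. Only genes measured in both livers by the reported filter were used, so dropping the filter did not bring in Gfi1b and left these medians unchanged. The mean over probes could not change the factors, which have 1 probe each. Of the factors, Gata1 and Nfe2 had the food-deprived maternal channel above background on 1 of 2 arrays. Control maternal levels of the 4 factors ran from 6.24 (Gata1) to 7.10 (Tal1), against floors of 6.05 and 5.79 on the maternal arrays. Within the heme enzymes the values split, with Uros and Cpox lower in the fetal response and Alad, Fech, Ppox (0.23 and 0.42), Alas2 (0.20 and 0.39) and Urod (0.39 and 0.13) above 0 on both arrays. Of the 8 genes that fell in the fetus and were measured in the mother, 3 fell in both: Ppox, Slc25a37 and, with the dim maternal probe named above, Nfe2. Klf1, Tal1, Uros, Tfrc and Epb4.9 fell in the fetus by the rule and did not pass it in the mother, and all but Tfrc passed it on the difference as well.

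**Figure D4:**
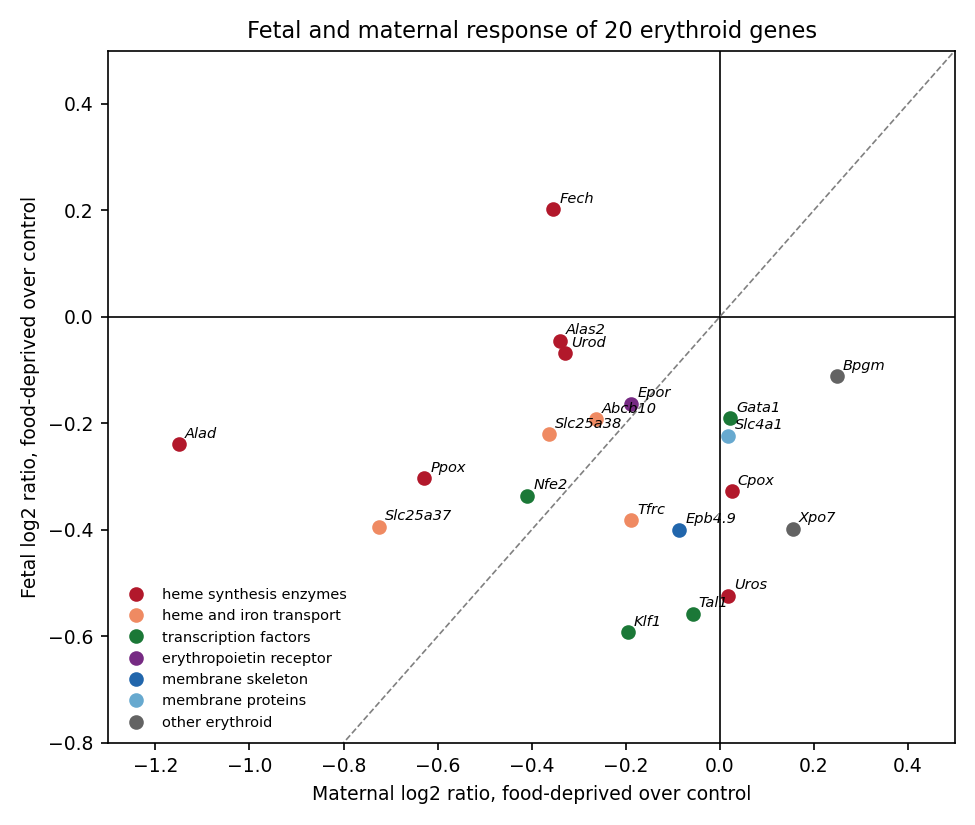
Fetal (y axis) against maternal (x axis) log2 ratio of food-deprived over control, mean of 2 arrays, for the 20 erythroid genes measured in both, coloured by role, with a dashed line of equal response. Alad lies far to the left, with a fetal value of -0.24 and a maternal one of -1.15, while Klf1, Tal1 and Uros lie lowest, at -0.52 or below in the fetus, and near 0 or up to -0.20 in the mother.

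The class medians can be compared across the ways of processing, but not all 13 alternatives are separate checks. All 34 genes had all 4 fetal channels above background. Dropping the filter, or asking for both conditions above background, therefore left the fetal medians unchanged. The factors have 1 probe each, so the mean over probes could not move their median. The series table holds ratios of the processed signals, so it largely repeats that setting. For the membrane skeleton and the transcription factors the fetal median stayed below 0 under all 13 alternatives, between -0.43 and -0.11 for the skeleton and between -0.37 and -0.11 for the factors. For the heme enzymes it ran from -0.27 to 0.03 and turned positive under 2 of them, without the first array (0.01) and with median centring together with the local background as deposited (0.03). In the plot of the class medians by processing the heme enzymes lay nearer to 0 than both other classes under 12 of the 13 alternatives, the exception being the mean over probes, where the skeleton stood at -0.21.

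**Figure D5:**
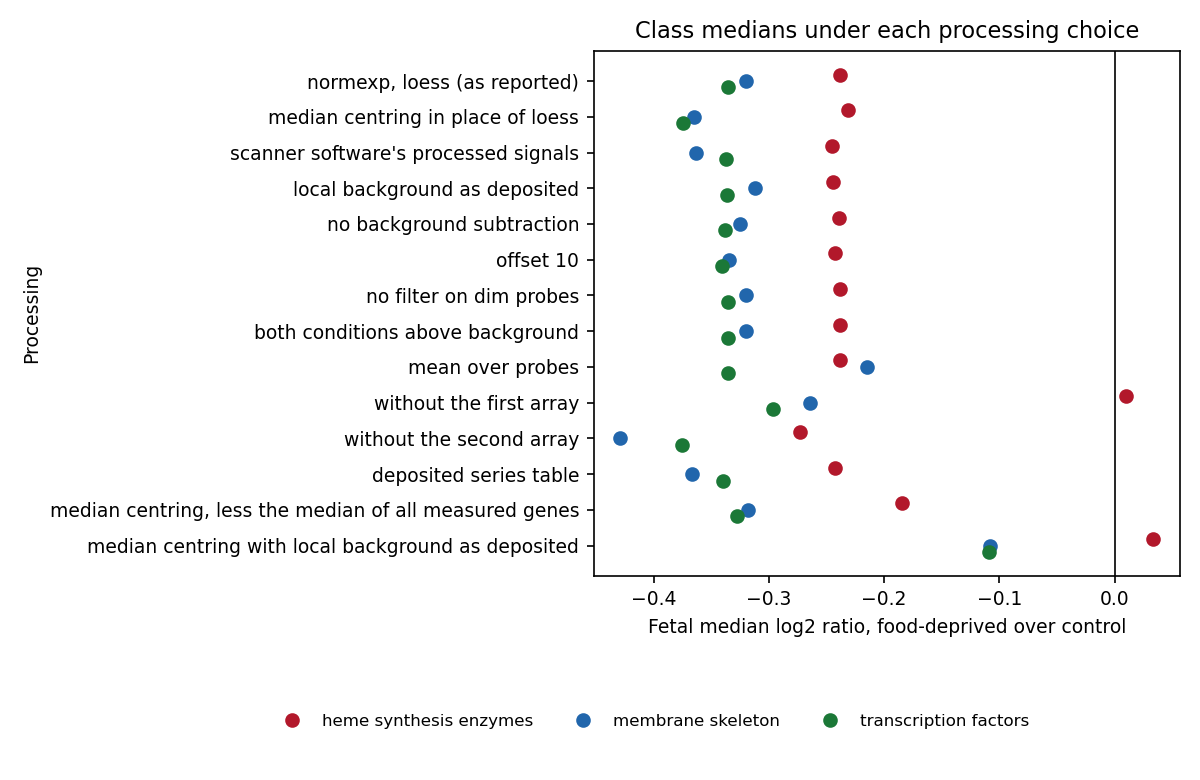
Fetal median log2 ratio of food-deprived over control (x axis) of the heme synthesis enzymes (red), the membrane skeleton genes (blue) and the transcription factors (green) under each way of processing (y axis), the reported one at the top. The heme enzymes lie above 0 in 2 settings, and both other classes lie below 0 in all.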

How the data were processed

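Liver RNA pools of food-deprived and control mice, fetal and maternal, were measured on 4 two-colour arrays with swapped dyes. Per the file headers, each deposited scanner file gives linear intensity values of every spot (mean signal and median local background) and processed intensity values made by Agilent Feature Extraction (9.5.1.1 in the headers, 9.5.3.1 in the submitters' processing notes). The deposited series table was read as a score: its values are ratios of the processed red to green signals, with 2 decimals (Pearson r with the scanner values at least 0.9999 on the log scale), with column medians of -0.92, 0.94, -0.88 and 0.88. The meaning of its sign stays unknown, and the size was used.

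In R 4.3.3 with limma 3.58.1, intensities were corrected by normexp (offset 50), normalised by loess within each array (weight 0 for control spots), and signed so that positive means higher after food deprivation. The local background of stained spots (net signal under -20 in either channel, 6 spots on the second fetal and 4 on the second maternal array) was first set to the array median, because normexp fits all spots. Control spots and outlier spots (215 to 257 per array) were left out, and spots of a probe averaged. A probe was measured when the same condition was well above background on both arrays, and the brightest measured probe stood for its gene. Levels are channel values after loess and Aquantile normalisation. Of 41174 gene probes, 22951 were named by accession through RefSeq tables on GRCm38.p6, from which the promoter windows also come, and the rest keep the name in the files. The genes, their classes, the other lists and the calling rules were chosen with earlier results of these data known. All 34 genes are accounted for. Those with levels given are, per class, the genes with the largest and smallest fetal mean change, the 2-fold calls, and Gfi1b, added after its values were seen. Genes outside the 34 come from the other lists, and not all that passed a rule are named. The procedure was tested on simulated data. The number of arrays limits the precision. Alternatives covered the normalisation, background, offset, filter, probe choice, arrays and source of the ratios.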

Additional observations from a re-analysis of the deposited data

Results flagged for a closer look

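Among the 34 genes and the related lists, 26 genes measured in both livers had both fetal arrays on one side of 0 and both maternal arrays on the other. For none of them was the difference tested. Many of these values lie within the SD of a single array from 0. The share of all measured genes split in this way is not given, so the count is not read as an excess. Over all measured genes both fetal arrays lay below 0 for 31.6% and above 0 for 31.1%. Both maternal arrays lay below 0 for 6117 and above 0 for 5574 of 16147 genes. Of the 34 genes, those split in this way were Gata1, with a fetal minus maternal log2 ratio of -0.21 (fetus -0.12 and -0.26, mother 0.04 and 0.00), and Xpo7, with -0.55 (fetus -0.55 and -0.24, mother 0.06 and 0.25). The largest of all was the transcriptional corepressor gene Cbfa2t3, at -1.77 (fetus -0.24 and -0.37, mother 1.61 and 1.31).

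Past the 1.2-fold rule in both livers were Car1 with 1.18 (fetus 0.48 and 0.59, mother -0.65 and -0.63), Cd59a with 1.15 (fetus 0.37 and 0.54, mother -0.80 and -0.60), Ftl1 with -0.79 (fetus -0.33 and -0.31, mother 0.42 and 0.52) and the Kupffer cell marker Vsig4 with 0.87 (fetus 0.31 and 0.30, mother -0.42 and -0.71). In heme and iron handling the difference was 1.07 for Aco1, -0.76 for Glrx5 and -0.60 for Abcg2. Among regulators it was 0.94 for Stat5b, 0.81 for E2f2, 0.68 for Stat5a, 0.46 for Jak2, -0.45 for Lyl1 and -0.30 for Bcl11a. The list of maturation genes also held Cat with 0.76, Ube2o with -0.53 and Fam210b with -0.30, and the list of membrane and skeleton genes Cd47 with 0.20. Of markers of other cells, Cd5l differed by 1.07, Kit by 0.38, Cd3e by 0.21 and Meis1 by 0.18, and of genes of dividing cells Mcm2 by -0.58 and Rrm2 by -0.26.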

How the results depend on the processing

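Class medians and counts, 104 in all, were recomputed under 11 alternatives and under 2 more added after the data were seen. Of these, 77 kept their direction and size, 20 moved and 7 changed sign. Of 699 recomputed values of single genes, 622 stayed within the spread between the arrays of the gene and 77 moved beyond it. Sign was not part of this count. Alas2 and Alad, among others, changed sign without the first array, and Fech and Eraf without the second. Leaving out each array in turn gave fetal heme enzyme medians of -0.27 to 0.0096, fetal minus maternal medians of -0.22 to 0.047 and maternal medians of -0.16 to -0.12. A single array then has to pass the rule, and more of all measured genes pass it. Without the first array 14 genes were lower in the fetus, against 11.5% of all measured genes, and 10 in the mother, against 21.7%. Without the second array 21 were lower in the fetus, against 8.85%, and 8 in the mother, against 17.3%. The fetal minus maternal median was also above 0 with the processed signals (0.016), with both conditions above background (0.025) and with the series table (0.015). The maternal median was -0.33 with the processed signals and with the series table, -0.25 with median centring, -0.16 with the local background as deposited, -0.28 at an offset of 10 and -0.043 with no filter on dim probes. Counts of lower genes were 0 in the fetus and 1 in the mother with median centring. When the median of all measured genes was subtracted as well, 344 of all 18051 genes measured in the fetus passed as lower. In the mother 1097 of 16147 did, and the counts were 1 and 3. With median centring and the local background as deposited they were 0 and 0, and the medians were 0.034 for heme enzymes, -0.11 for the skeleton, -0.11 for the factors, -0.059 for all 34 genes, -0.17 in the mother and 0.11 for fetal minus maternal, where the fetal median of all measured genes was 0.09. The cause of the other differences was not tested. No paired analysis was possible because each array already holds both conditions of its replicate number, so that its ratio is the difference within the pair, and the number goes with the dye orientation.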
